A study of Mus musculus with 12 samples.

Results

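The 12 hippocampus libraries of this series separated into 3 with almost no transthyretin RNA and 9 with a great deal of it. Transthyretin (Ttr) is the main carrier of thyroid hormone and retinol-binding protein in cerebrospinal fluid, and in the brain its RNA comes chiefly from the choroid plexus. The 3 low-Ttr libraries were wild-type female 1, heterozygous male 2 and heterozygous male 3, chosen by their normalized Ttr count, which was below 1000. The other 9 libraries (wild-type males 1, 2 and 3, heterozygous male 1, wild-type females 2 and 3, and heterozygous females 1, 2 and 3) were above 40000. A normalized count is the number of reads on a gene divided by a size factor of the library, so that libraries of unequal depth can be compared. Of 46078 gene identifiers, 17496 had a mean normalized count of at least 10 and were described. All animals were C57BL/6 mice at postnatal day 25, either wild type or heterozygous for the CHD8 Asn2373LysfsX2 mutation, with 3 libraries for each of the 4 combinations of genotype and sex. Bulk hippocampus was sequenced, and between 23721482 and 33327314 reads per library were assigned to genes. The labels do not say whether each library came from a separate animal, so every p-value measures the spread between these libraries.

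The choroid plexus hangs from the medial edge of the hippocampus into the brain ventricles. Its single-layered epithelium secretes cerebrospinal fluid, seals it off from blood with tight junctions and carries motile cilia, and it surrounds a core of stromal fibroblasts, macrophages and fenestrated capillaries. Ependymal cells that line the ventricle wall next to it also bear motile cilia, and neurons and glia of the hippocampus use many of the same ion transporters. In bulk tissue, fewer cells of a type and less RNA per cell cannot be told apart.

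Because Ttr chose the libraries, the difference between the 2 sets is given as a description with no test. Ttr was 269 in heterozygous male 2, 274 in heterozygous male 3 and 167 in wild-type female 1. The lowest of the 9 others was 43047, in wild-type female 2, and the next 45529, in heterozygous female 2, with a median of 129048 and a highest value of 156059 in wild-type male 1. No library lay between 274 and 43047. Ttr took 0.159% to 0.586% of all reads in the 9 libraries and 0.00061% to 0.00102% in the 3. The low libraries were thus not free of Ttr RNA, and they are called low-Ttr libraries here. Both other epithelial markers used to check the label were also far lower but present. Folr1, the folate receptor that moves folate into cerebrospinal fluid (chr7:101858331-101870788 on GRCm38, minus strand), was 14.8, 33.7 and 22.7 in heterozygous males 2 and 3 and wild-type female 1. In the other 9 it ranged from 364.7 to 1225, with a median of 1043. Otx2, the homeobox factor of choroid plexus fate (chr14:48657677-48673819, minus strand), was 14.8, 30.4 and 19.1, against 178.6 to 694 with a median of 538. The 2 sets did not overlap for either gene.

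Genes were sorted by how much of their level remained, meaning the mean of the 3 low-Ttr libraries as a percentage of the mean of the 9 others, and by whether the 2 sets overlapped. In 53 genes (0.303% of those described) every low-Ttr library lay below every other and less than 10% remained, which is called a near-complete fall. In 322 genes (1.84%) there was no overlap and 10% to under 65% remained, called a part fall. A further 365 (2.09%) were lower with no overlap but kept 65% or more, called a small fall. These classes together hold 740 genes (4.23%). In the other direction, 240 genes (1.37%) were higher with no overlap, of which 9 (0.0514%) stood at 150% or more. The remaining 16516 genes overlapped between the sets. The median remaining level was 4.39% in the near-complete class, 47.1% in the part class, 81.7% in the small class and 100.4% over all 17496 genes. At the edge between the first 2 classes, Igfn1 kept 9.79% and Calml4 10.1%, and at the edge of the part class Fxyd1 kept 64.8% and Tor3a 65.1%. Together, the 53 genes of the near-complete class took 0.295% to 1.01% of reads in the 9 libraries and 0.0244% to 0.0275% in the low-Ttr ones. These shares include Ttr, which chose the libraries. Without Ttr the class took 0.137% to 0.423% and 0.0234% to 0.0265%. The part class took 0.285% to 0.523% in the 9 libraries and 0.185% to 0.197% in the low-Ttr ones.

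**Figure D1:**
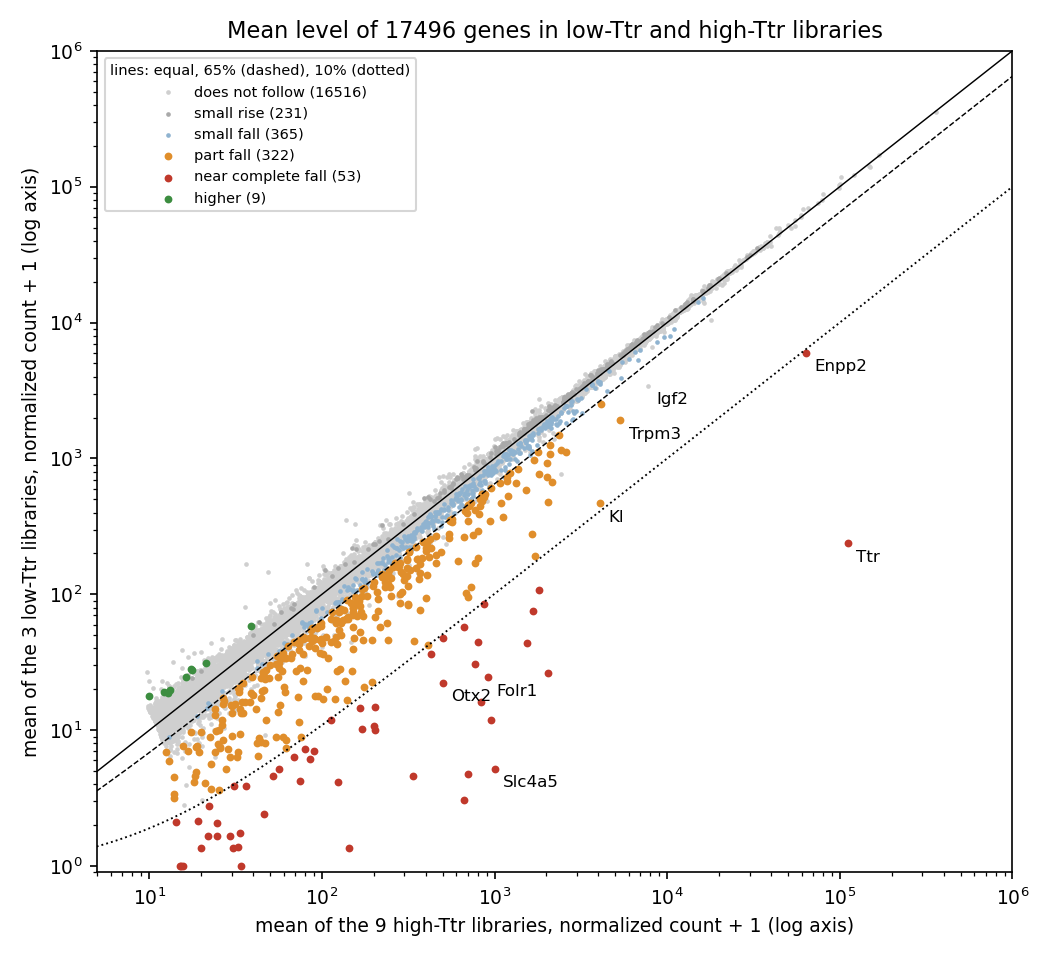
Mean normalized count plus 1 of each of the 17496 genes in the 9 high-Ttr libraries (x axis, log scale) and in the 3 low-Ttr libraries (y axis, log scale), coloured by class. Most genes lie on the line of equal level, while 53 genes (red) lie below the dotted line at 10% and 322 (orange) between it and the dashed line at 65%.

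Several genes of fluid secretion were in the near-complete class. Slc4a5, a sodium bicarbonate cotransporter of the apical membrane (chr6:83219828-83304945, plus strand), was 3.4, 6.5 and 2.7 in the 3 low-Ttr libraries against 402.1 to 1415 in the others, with a median of 1130. That leaves 0.419% of its level. Kcne2, a potassium channel subunit (chr16:92292389-92298129, plus strand), was 1.1, 6.5 and 3.6 against 289.9 to 1005, leaving 0.538%. The epithelial water channel Aqp1 kept 1.81%, the chloride channel protein Clic6 1.25%, the potassium channel Kcnj13 4.47% and the membrane protein Steap1 5.40%. The osmosensing channel Trpv4 kept 9.35% and the retinoid transporter Abca4 9.72%. Of the 32 channels, transporters and enzymes in the transport list, 8 were in the near-complete class, 11 in the part class and 5 in the small class. Over all genes these shares were 0.303%, 1.84% and 2.09%.

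Of the 25 genes in the list of secreted proteins and their receptors, 10 were in the near-complete class, Ttr itself among them. Another 5 were in the part class, beside 0.303% and 1.84% of all genes in these classes. Enpp2, which encodes autotaxin, the enzyme that makes lysophosphatidic acid (chr15:54838901-54952892, minus strand), was 5449, 6288 and 6289 in the low-Ttr libraries and 29378 to 86574 in the others, with a median of 69416. It was therefore still abundant where 9.48% of it remained. Per kilobase of exon, Enpp2 stood at 1040 in the low-Ttr libraries, above Ttr at 199, whereas in the others Ttr stood at 93557 and Enpp2 at 10967. Among the rest, the protease inhibitor gene Wfdc2 kept 2.58%, coagulation factor gene F5 2.79%, the augurin gene 1500015O10Rik 4.41%, the collagen gene Col8a1 5.48%, the prolactin receptor gene Prlr 5.88% and the BMP and Wnt antagonist gene Sostdc1 8.45%. Klotho (Kl), the FGF23 co-receptor that is also shed into the fluid, was 498, 453 and 455 against 1724 to 5742, and with 11.5% remaining it fell just outside the class.

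Of the 11 regulators, 2 were near-complete, 3 in the part class and 2 in the small class, and 4 overlapped between the sets. Over all genes the shares of the 3 falling classes were 0.303%, 1.84% and 2.09%. The median remaining level of the regulators was 71.1% and the highest 115.7%. Otx2 and Lmx1a (6.75% remaining), both homeobox factors of the roof plate and choroid plexus, were near-complete. The homeobox gene Msx1 kept 21.7%, Gmnc, which drives multiciliated cell fate, 43.1%, and Foxj1, the master factor of motile cilia, 57.6%. Of the 15 genes for junctions and cell shape, 4 were near-complete: the membrane protein gene Tmem72 with 0.313% remaining, Prr32 with 1.07%, the pore-forming claudin Cldn2 with 3.89% and keratin Krt18 with 6.89%. Another 7 were in the part class, among them Krt8 with 11.2%, the claudin Cldn1 with 20.3% and ezrin (Ezr), which links microvilli to actin, with 60.1%. Over all genes the shares of these 2 classes were 0.303% and 1.84%. The low-Ttr value of Cldn1 was 46.5 and 67.4 in the heterozygous males and 111.7 in wild-type female 1. Claudin 5 (Cldn5), the claudin of brain capillaries, overlapped between the sets and kept 106.9%.

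**Figure D2:**
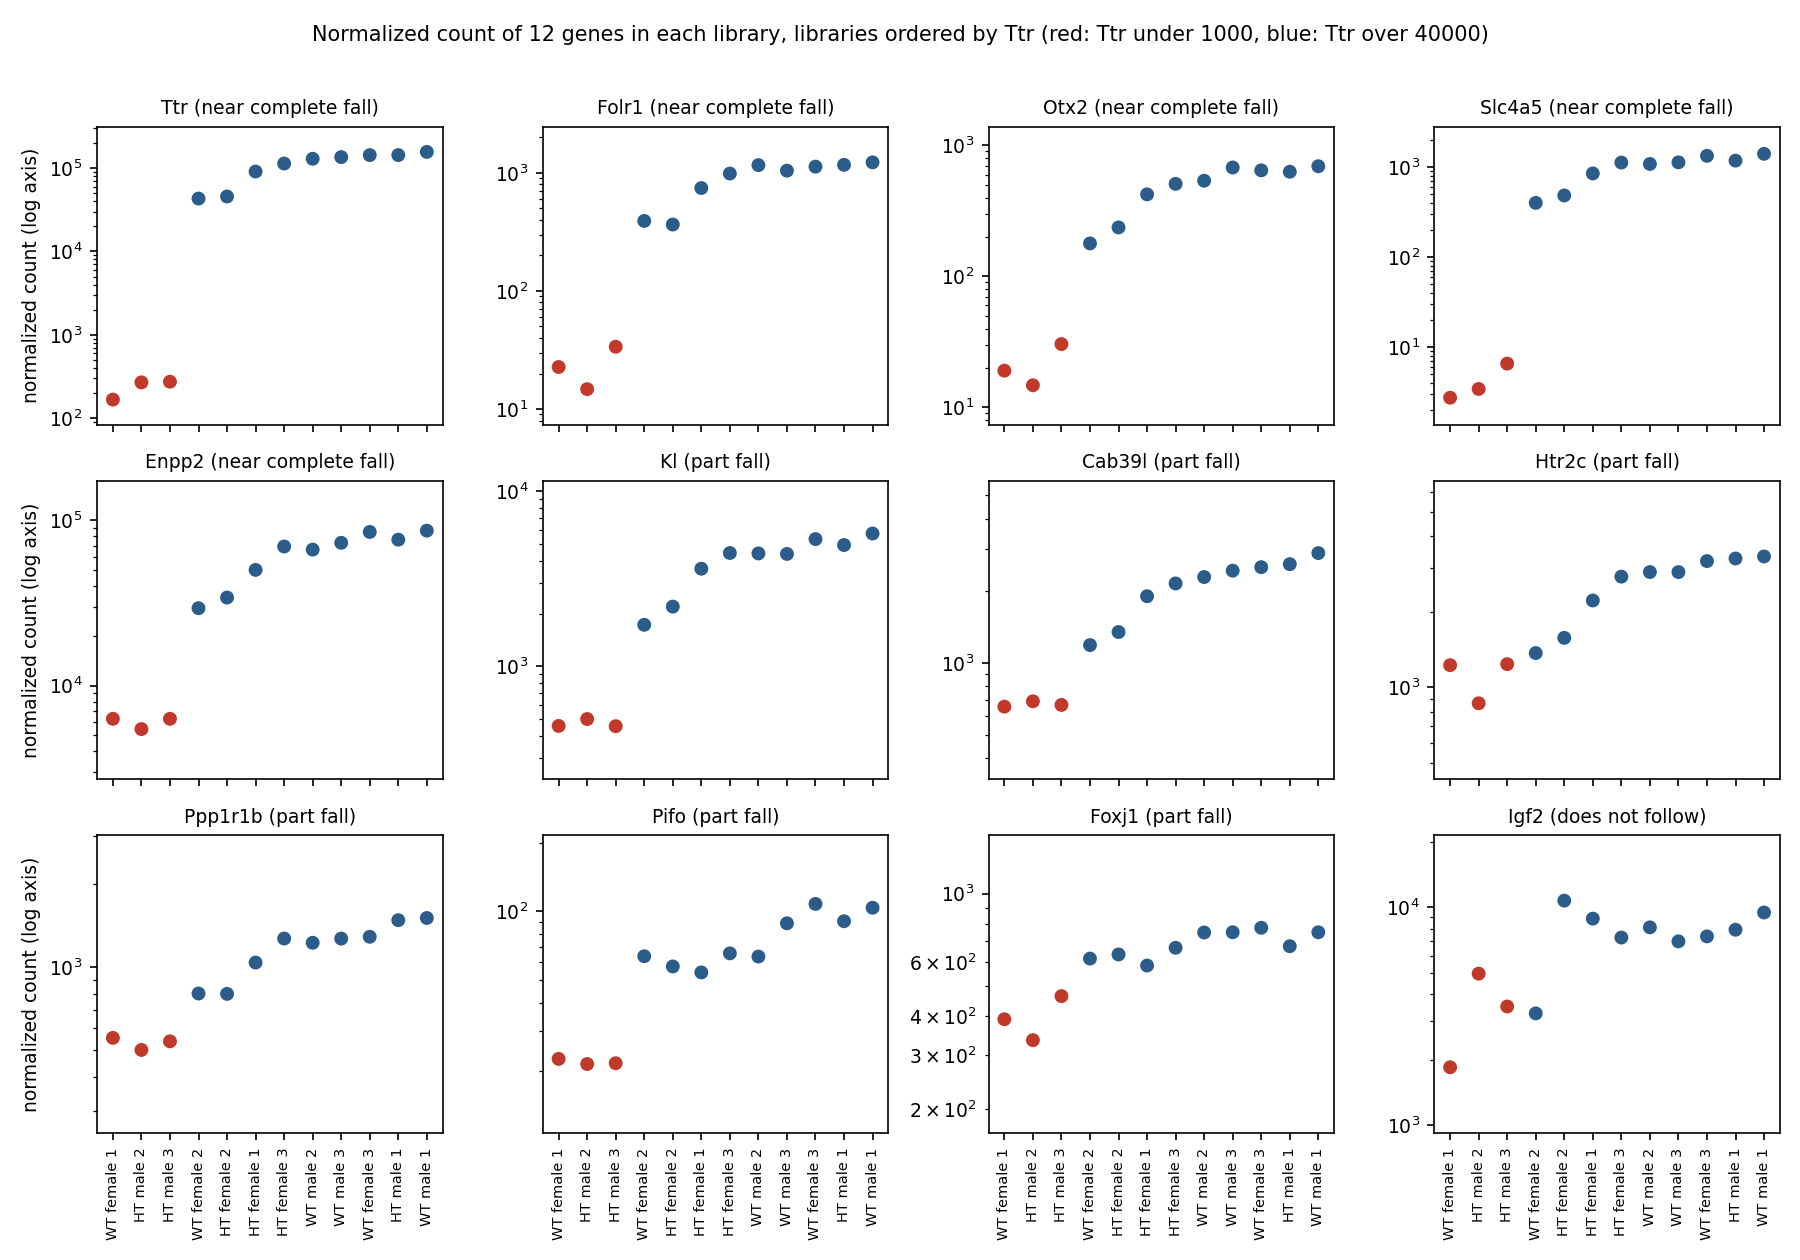
Normalized count (y axes, log scale) of 12 genes in each of the 12 libraries, ordered from the lowest to the highest Ttr (x axis). Red points are the 3 low-Ttr libraries and blue points the 9 others. Slc4a5 is at 6.5 or less in all red points, Cab39l stays at 657 or more and Ppp1r1b at 501 or more, and the red points of Igf2 overlap the blue ones.

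Outside the lists of choroid plexus and other cell types stood 29 of the 53 genes. Only 5 of them had a mean of at least 100 in the 9 libraries. Defb11, a beta-defensin gene, was at 0 in 2 low-Ttr libraries and at 1.1, which is 1 read, in heterozygous male 3, against 44.5 to 200.7 in the others. Pla2g5, a secreted phospholipase, kept 4.94%, the RNA-binding protein gene Rbm47 8.12%, the WD-repeat gene Wdr86 8.29% and Igfn1, best known from muscle, 9.79%. The low-Ttr values of Igfn1 were uneven, at 5.7 and 5.4 in the heterozygous males and 21.8 in wild-type female 1. At 0 in all 3 low-Ttr libraries were 4 weakly expressed genes: the olfactory receptor gene Olfr570, Smim22, the long noncoding RNA Gm14275 and the transcription factor gene Tcf21. With a floor of 3 reads over the 3 low-Ttr libraries together, Olfr570 was at least 31.8-fold higher in the 9 libraries. These 4 and the next 3 genes were picked after their values were seen. Ins2, an insulin gene, was 0, 1.1 and 0.9 against 9.9 to 30.6, with a median of 28.2. P-cadherin (Cdh3) kept 4.39% and the Wnt antagonist gene Sfrp5 7.55%.

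Of the 322 part-fall genes, 26 were among the 83 described genes of the 4 choroid plexus lists, beside 1.84% of all genes. Cab39l, a scaffold of the STK kinases that control ion transport (chr14:59440972-59585764, plus strand), was 692, 668 and 657 against 1187 to 2873, leaving 31.4%. Trpm3, a calcium channel gene that hosts a choroid-rich microRNA, was 2160, 1770 and 1820 against 3316 to 6799, leaving 35.7%. Htr2c, the serotonin receptor gene best known from choroid plexus and also made by neurons, was 863, 1237 and 1225 against 1369 to 3322, leaving 42.5%. The carbonic anhydrase Car12 kept 47.4% and Car14 51.3%, the anion exchanger Slc4a2 45.9%, the copper importer Slc31a1 42.8% and the metalloreductase Steap2 36.9%. Larger falls within the class included the angiotensin-converting enzyme gene Ace with 16.8% and the glucose transporter Slc2a12 with 15.6%.

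Outside every list were 281 part-fall genes. The 12 of these with the highest level left in the low-Ttr libraries and under 50% remaining were Col9a3, Ifi27, Cgnl1, Ppp1r1b, Vat1l, Ucp2, Cfap65, Acaa2, Lgals3bp, Frem1, Pcolce and Nid2. Col9a3, a chain of collagen IX, was 634, 794 and 745 against 1262 to 2716, with 35.8% remaining. Ppp1r1b, which encodes DARPP-32, the dopamine-regulated phosphatase inhibitor of neurons, was 501, 539 and 555 against 801 to 1510, with 44.7% remaining. Vat1l kept 23.3%, the mitochondrial uncoupling protein gene Ucp2 42.8%, the interferon-inducible Ifi27 49.3%, the junction protein gene Cgnl1 38.9% and the basement membrane genes Frem1 and Nid2 36.4% and 42.8%. Other extracellular matrix genes lay lower: Sulf1, which trims heparan sulfate, kept 11.0% and Col8a2 14.8%. The 2 basement membrane collagens Col4a3 and Col4a4, whose genes start 72 bases apart and point away from each other, kept 11.2% and 18.6%, and were picked after their values were seen. Of 44 collagen genes with enough reads, 1 was near-complete and 5 were in the part class, beside 0.303% and 1.84% of all genes.

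A second measure was how each gene moved with Ttr among the 9 high-Ttr libraries, whose differences in Ttr had not been used to form the sets. The classes used each gene's level in the same 9 libraries, so class and slope are not fully independent. Each gene's log2(normalized count + 1) was fitted on log2(Ttr + 1) with limma, and a slope of 1 means a level proportional to Ttr. Adjusted p-values (Benjamini-Hochberg, over 17495 genes) below 0.05 gave 244 positive slopes (1.39%) and 14 negative ones (0.08%). In the near-complete class 42 of 52 genes other than Ttr rose with Ttr, with a median slope of 0.89. In the part class 120 of 322 did, with a median slope of 0.29, and in the small class 31 of 365, with a median of 0.05. The slope of Folr1 was 0.95 ± 0.04 (SE, limma adjusted p = 1.31e-08), that of Clic6 0.94 ± 0.04 (1.13e-08), that of Aqp1 1.00 ± 0.04 (1.13e-08) and that of Mfrp, a frizzled-related membrane protein gene, 1.02 ± 0.04 (3.63e-09). For Otx2 it was 0.97 ± 0.05 (limma adjusted p = 1.16e-07), for Enpp2 0.79 ± 0.04 (1.04e-07) and for Cab39l 0.60 ± 0.03 (4.68e-08).

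The 5 genes outside the lists with the smallest p in this fit were Vat1l (slope 0.86 ± 0.03), Sulf1 (0.92 ± 0.04), Col8a2 (0.58 ± 0.04), Pla2g5 (0.87 ± 0.06) and Col9a3 (0.54 ± 0.04), with limma adjusted p-values of 4.1e-09, 2.37e-08, 1.28e-06, 1.49e-06 and 1.79e-06. Outside the lists, 19 of the 29 near-complete genes and 96 of the 281 part-fall genes rose with Ttr. In the whole classes it was 42 of 52 and 120 of 322, and over all genes 1.39%. Sex and Ttr were not spread evenly over the 9 libraries, where Ttr ran from 43047 to 142855 in 5 females and from 129048 to 156059 in 4 males. With sex and genotype in the fit, 34 near-complete and 81 part-fall genes still passed, out of 151 positive and 5 negative calls in all. Leaving out wild-type female 2, which had the lowest Ttr of the 9, gave 207 positive and 256 negative calls, of which 38 positive ones were in the near-complete class and 101 in the part class.

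**Figure D3:**
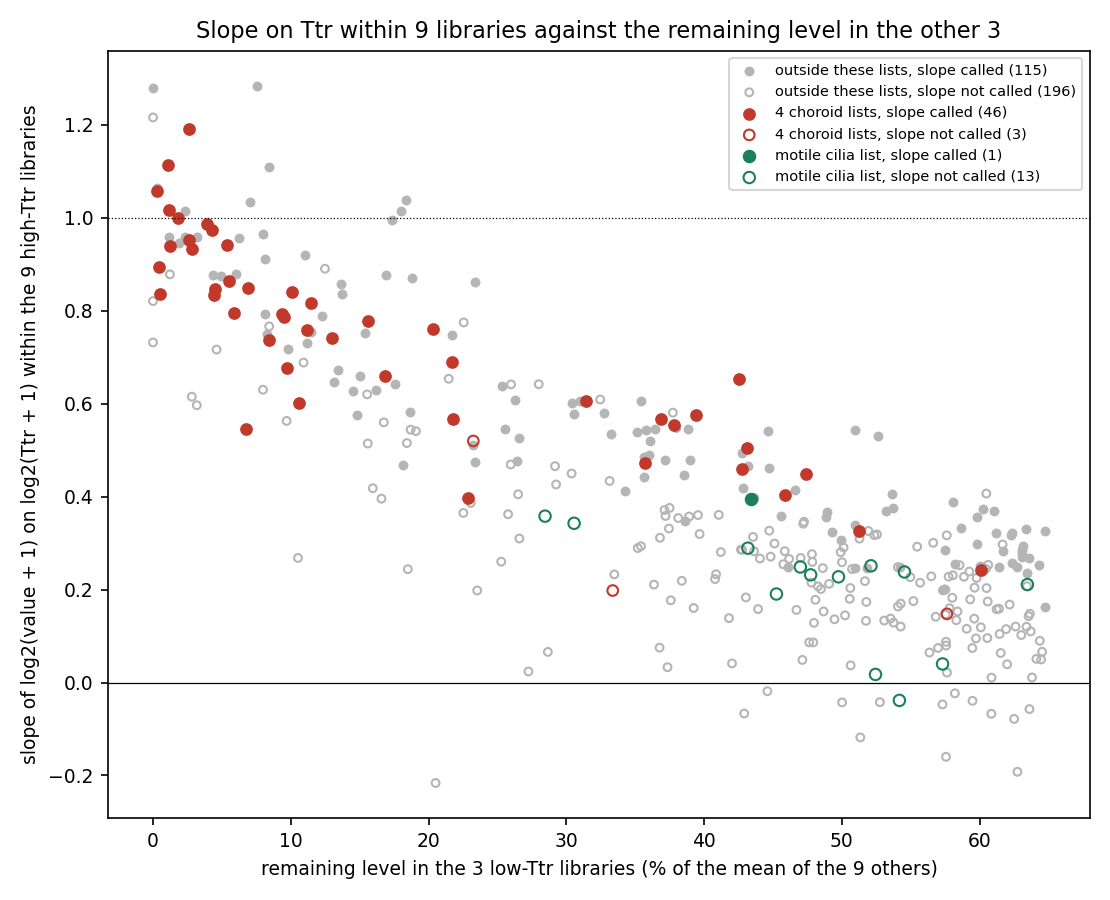
Slope of log2(normalized count + 1) on log2(Ttr + 1) within the 9 high-Ttr libraries (y axis) against the level remaining in the 3 low-Ttr libraries (x axis, %), for the 374 genes of the near-complete and part classes other than Ttr. Filled points passed the limma test. Genes of the 4 choroid plexus lists (red) lie mostly above genes of the motile cilia list (green), of which 1 of 14 passed.

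A straight line through the 9 libraries, normalized count against Ttr, gives the level at the Ttr of the low libraries, so that the level left can be set beside a value from other libraries. For several part-fall genes, named here because of their agreement, the line and the measurement nearly coincided. The line gave 31.2% for Cab39l, where 31.4% was measured, 46.7% for Car12 (47.4% measured), 44.9% for Ppp1r1b (44.7% measured) and 35.2% for Col9a3 (35.8% measured). The transporter gene Slc29a4, in the small class, had 68.9% by the line and 68.9% measured. In other genes the measured level was lower than the line: Lbp, for lipopolysaccharide-binding protein, kept 22.9% where the line gave 50.8%, Prlr 5.88% against 24.4%, Lmx1a 6.75% against 31.6% and Col8a2 14.8% against 36.4%. In the opposite direction, Htr2c kept 42.5% where the line gave 27.8% and Vat1l 23.3% against 11.2%. Among the 120 part-fall genes with a called slope, the median was 38.2% measured and 43.2% by the line, and 49 lay within 5 percentage points. Among the 202 without a called slope, the medians were 49.8% and 71.1%, and 193 lay below the line. Where the line gives more than 65%, that position follows from the class itself, since the measured level had to be under 65%. For part-fall genes with a lower value on the line, the class does not force that position but favours it. The 65% limit and the rule of no overlap with the 9 libraries both cut off higher measured levels. Of the 120 genes with a called slope, 83 lay below the line, a count that includes this selection. How much of it came from selection, or from any other cause, was not tested. Prlr and Lmx1a are near-complete genes whose line lay above the upper limit of that class, so their position follows from the class. Leaving out each of the 9 libraries in turn gave a range of lines for each gene. The measured level lay inside it for 108 of 322 part-fall genes and 24 of 53 near-complete ones, Ttr counted among the 53. Over all 17496 genes it did so for 7560. The line assumes a proportional part plus a constant part, and whether either held beyond the range of the 9 libraries was not tested.

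**Figure D4:**
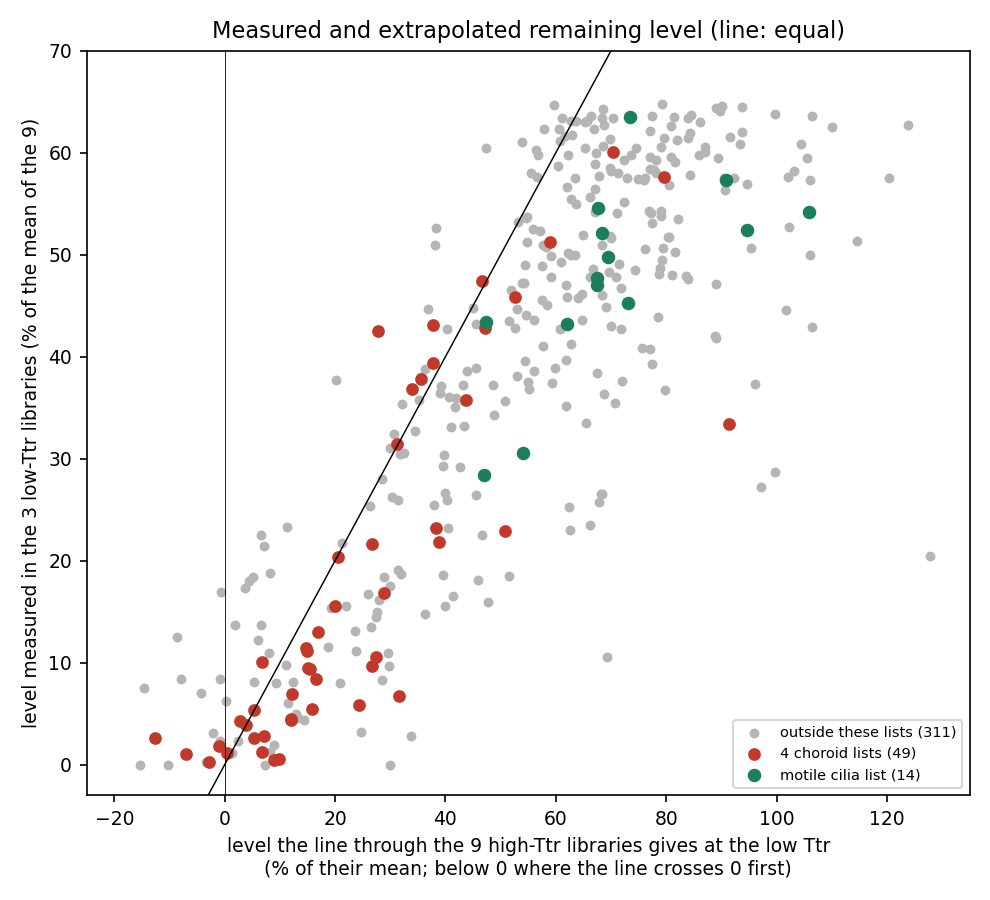
Level measured in the 3 low-Ttr libraries (y axis, % of the mean of the 9 others) against the level that a straight line through the 9 gives at the same Ttr (x axis, %), for 374 genes. Points on the drawn line are equal, and green marks the motile cilia list. Part-fall genes with more than 65% on the x axis lie below the line because of the 65% limit of their class.

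Motile cilia genes were lower without overlap in 15 of 31 cases, beside 4.23% of all genes. Of 31 axoneme and ciliogenesis genes, 14 were in the part class, 1 in the small class and none in the near-complete class. Pifo, needed for the disassembly of primary cilia (chr3:105996957-106014646, minus strand), was 21.6, 21.7 and 22.7 in the low-Ttr libraries against 54.2 to 107.9, leaving 28.5%. Mlf1 kept 30.6%, Cfap126 43.2%, the tektin gene Tekt1 43.4%, and the central-pair gene Hydin 57.3%, whereas the outer dynein arm gene Dnah5 (91.8%) overlapped between the sets. Summed over the list, the level was 4874 to 6183 in the low-Ttr libraries and 6821 to 9052 in the others. Within the 9 libraries, the median slope over all 31 genes was 0.04. Of the 31, 2 rose with Ttr, Tekt1 and Ccdc39, beside 1.39% of all genes. Both calls were lost with sex and genotype in the fit, where the limma adjusted p was 0.408 and 0.395, and both also without several single libraries. In wild-type female 2 and heterozygous female 2, with the lowest Ttr of the 9, the cilia sum was 7745 and 7645, inside the range of the others. The 14 part-fall genes of the cilia list had a median slope of 0.23, with 1 called. All 322 part-fall genes had a median slope of 0.29, with 120 called. In the 26 part-fall genes of the 4 choroid plexus lists the median was 0.57, with 23 called. These sets fell to unlike depths, with a median remaining level of 48.7% for the cilia genes, 47.1% for all part-fall genes and 32.4% for the choroid plexus genes. By symbol, the Cfap family, a set of cilia and flagella proteins grouped after values were seen, had 9 of 29 genes in the part class. Of the 29, 1 had a called slope, Cfap69, outside those 9. Over all genes the shares were 1.84% and 1.39%, and 1 call in 29 genes cannot be set apart from the latter.

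Promoters of the 2 groups are shown to set these genes side by side in sequence. A promoter here is the window from 250 bases before to 50 after a RefSeq gene start on GRCm38.p6, and a gene counts once if any of its starts matches. OTX factors bind the letters TAATCC, and RFX factors, which switch on cilia genes, bind an X-box built from half-sites written here as GTTGCC. Both were searched on both strands, as was TGTTTAC, written here for FOX factors. TGTTTAC was found in 3 of 29 genes of the cilia list with a promoter (10.3%) and in 2 of 41 near-complete genes (4.88%). It was found in 10 of 239 part-fall genes (4.18%) and in 3.12% of described genes. TAATCC was found in 5 of the 41 near-complete genes with a promoter in the table (12.2%), in 25 of 239 part-fall genes (10.5%), in 3 of 29 genes of the cilia list (10.3%) and in 6.96% of 12448 described genes. GTTGCC was found in 16 of 29 genes of the cilia list (55.2%), in 7 of the 41 near-complete genes (17.1%), in 62 of the part-fall genes (25.9%) and in 15.1% of described genes. Over all 32851 promoters in the table, the shares were 7.06% for TAATCC and 12.5% for GTTGCC. A match describes letters only. The 250 bases before the start are printed 5′ to 3′ on the gene's strand, with the match in capitals, for Mfrp (chr9:44101520-44101769, plus strand) and Abca4 (chr3:122044210-122044459, plus strand), which hold the OTX letters on the opposite strand, and for Mlf1 (chr3:67373847-67374096, plus strand) and Tekt1 (chr11:72361883-72362132, minus strand), which hold the X-box half-site. In Tekt1 the 2 matches lie on opposite strands, 35 and 15 bases before the start. Mlf1 also holds the OTX letters on the opposite strand, near the 5′ end of the window and left in lower case. Its window holds TGTTTAC too, likewise in lower case.
Mfrp: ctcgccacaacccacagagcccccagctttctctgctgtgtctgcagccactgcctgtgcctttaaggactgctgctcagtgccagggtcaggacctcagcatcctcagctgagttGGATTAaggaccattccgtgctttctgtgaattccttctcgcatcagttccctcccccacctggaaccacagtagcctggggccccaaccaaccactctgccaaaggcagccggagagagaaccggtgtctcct
Abca4: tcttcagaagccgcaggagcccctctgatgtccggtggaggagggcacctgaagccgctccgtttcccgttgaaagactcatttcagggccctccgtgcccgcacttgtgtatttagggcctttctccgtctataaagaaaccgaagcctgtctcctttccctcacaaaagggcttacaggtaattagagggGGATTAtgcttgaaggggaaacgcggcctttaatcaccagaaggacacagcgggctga
Mlf1: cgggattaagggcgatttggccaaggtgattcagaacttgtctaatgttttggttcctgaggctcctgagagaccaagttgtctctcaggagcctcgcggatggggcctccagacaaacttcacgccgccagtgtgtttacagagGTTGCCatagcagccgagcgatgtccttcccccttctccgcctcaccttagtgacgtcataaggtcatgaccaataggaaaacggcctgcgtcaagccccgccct
Tekt1: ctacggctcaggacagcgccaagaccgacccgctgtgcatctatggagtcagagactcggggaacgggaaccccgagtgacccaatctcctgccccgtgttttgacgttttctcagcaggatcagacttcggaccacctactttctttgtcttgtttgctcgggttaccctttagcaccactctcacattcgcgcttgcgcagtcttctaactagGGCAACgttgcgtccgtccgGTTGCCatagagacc

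Some genes that textbooks tie to the choroid plexus overlapped between the sets. Igf2, a growth factor made by choroid plexus and by the meninges, was 4968, 3511 and 1847 in the low-Ttr libraries and 3265 to 10739 in the others, with a median of 7899. Its lowest high-Ttr value, in wild-type female 2, lay below 2 of the low-Ttr values, and its slope was 0.26 ± 0.18 (limma adjusted p = 0.656). Its binding protein gene Igfbp2 was 1032.5, 838 and 442 against 1032.2 to 3241, so that 1 low-Ttr library just reached the lowest of the others, and Lepr, the leptin receptor gene, was 180.4, 149.9 and 99.9 against 151.7 to 484. Both kept under 45%, at 31.6% and 40.1%. At the other end, the secreted proteins Clu (91.3% remaining) and Cst3 (97.7%), the angiogenic factor Vegfa (97.8%), the sodium pump subunit Atp1b1 (103.0%) and the carbonic anhydrase Car2 (93.3%) stood near their level in the 9 libraries. The RFX factor Rfx3 kept 90.9% and the Notch target Hes1 98.1%. Slc4a10, a bicarbonate transporter also made by neurons, overlapped as well, at 6264, 6721 and 7005 against 6640 to 8972, but it rose with Ttr within the 9 libraries (slope 0.17 ± 0.02, limma adjusted p = 0.00166). In all, 51 of the 16516 genes whose sets overlapped rose with Ttr there, a smaller share than the 1.39% over all genes. The same 16516 genes held all 14 negative slopes.

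None of the 15 stromal fibroblast genes and none of the 10 border macrophage genes was lower without overlap, and these lists are too short to be set apart from the 4.23% over all genes. Remaining levels ran from 17.9% to 122.8% in the stromal list and from 53.9% to 154.9% in the macrophage list. Summed over the stromal list, low-Ttr libraries ranged from 12903 to 29815 and the others from 11482 to 69406, with the highest value in heterozygous female 2. The collagen gene Col1a1 was 960, 655 and 388 in the low-Ttr libraries and 333 to 1573 in the others. The stromal list had a median slope on Ttr of -0.31, with Dpep1, a dipeptidase gene, as its 1 positive call (slope 0.86 ± 0.16, limma adjusted p = 0.00991). That call was lost without heterozygous female 2 (limma adjusted p = 0.0541) and with sex and genotype in the fit (0.12). The macrophage list summed to 380 to 574 in low-Ttr libraries and to 372 to 1119 in the others. Of 3 genes of fenestrated endothelium, Plvap, which forms the diaphragms of the fenestrae, was 150.9, 131.5 and 132.6 against 187.6 to 277.4, leaving 60.5%. Emcn kept 69.3%, and Esm1 overlapped. The part of vessels and meninges in these values was not tested.

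Of 10 genes of the blood-brain barrier endothelium, the thyroid hormone transporter Slco1c1, which choroid plexus epithelium also makes, was lower, at 1896, 2060 and 1923 against 2234 to 3245. It kept 68.5%, with a slope of 0.29 ± 0.02 (limma adjusted p = 5.55e-06). Cldn5, Abcb1a, Pecam1 and Ly6c1, picked after their values were seen, had negative slopes, of which that of Cldn5 was -0.27 ± 0.04 (limma adjusted p = 0.00357). Heterozygous female 2, with the second lowest Ttr of the 9, had the highest sum of this list, 13055 against 10690 to 11723 in the other 8. Without that library the slope of Cldn5 was -0.25 (limma adjusted p = 0.029), while Abcb1a (0.156), Pecam1 (0.178) and Ly6c1 (0.168) no longer passed. With sex and genotype in the fit none of the 4 passed, with limma adjusted p-values from 0.108 to 0.269. Markers of mural cells, red blood cells, pyramidal neurons, dentate granule cells, interneurons, astrocytes, myelin, thalamus and neocortex held no gene without overlap, in lists of at most 10 genes each, and their median remaining levels ran from 94.8% to 106.9%. The microglial receptor gene P2ry12 was slightly higher in the low-Ttr libraries, at 1291, 1190 and 1165 against 997.6 to 1158. The 9 genes at 150% or more were all weakly expressed, the most abundant being the long noncoding RNA Gm26804 at 57.9 against 37.7.

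**Figure D5:**
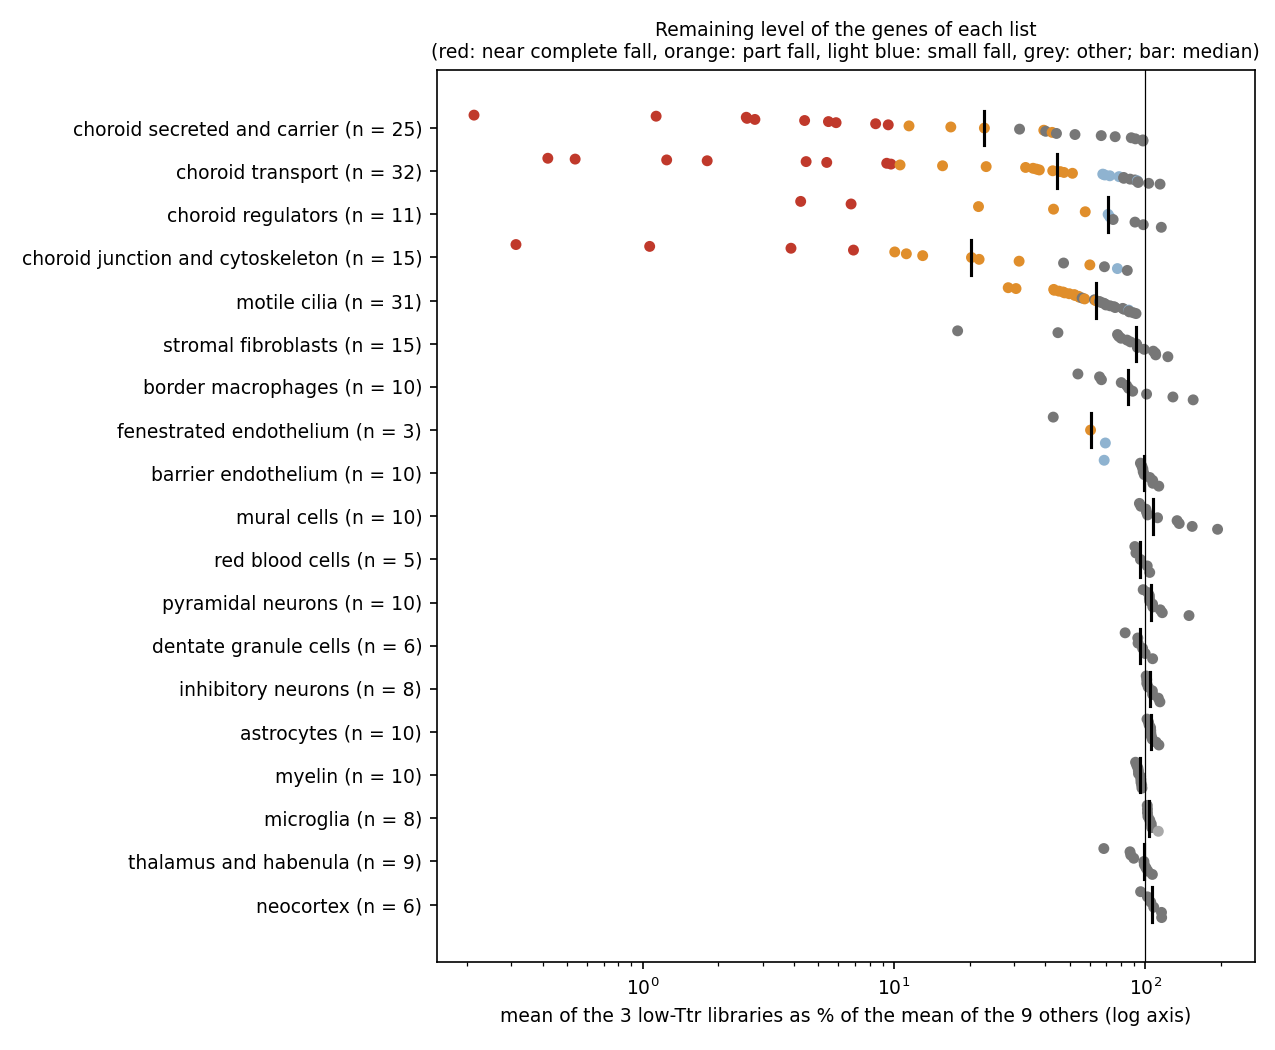
Level remaining in the 3 low-Ttr libraries (x axis, % of the mean of the 9 others, log scale) for each gene of 19 cell-type lists (rows), with a bar at each list's median. Genes of the 4 choroid plexus lists spread from 0.213% to 115.7%, while the neuronal and glial lists cluster around 100.

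Low-Ttr libraries were unequally spread over the groups, with 2 of 3 among heterozygous males, 1 of 3 among wild-type females and 0 of 3 in each remaining group. Among males, the mean Ttr was 140084 ± 14167 (SD, n = 3) for wild type and 47848 ± 82405 for heterozygotes. Among females it was 62023 ± 73212 for wild type and 83157 ± 34445 for heterozygotes. Within the 2 groups that hold both kinds, Ttr was 167 in wild-type female 1 against 43047 and 142855 in wild-type females 2 and 3, and 269 and 274 in heterozygous males 2 and 3 against 143001 in heterozygous male 1. The near-complete class had a median log2 difference of heterozygous minus wild type of -2.79 in males and 1.47 in females, and the part class of -0.83 and 0.31, against 0.00169 and 0.00109 over all genes. These differences follow from where the low-Ttr libraries lie and are no separate observation. None of these genes passed at an adjusted p of 0.05 in limma, in males, in females or for the difference between the sexes, where 0 of 17496 genes (0%) passed. Heterozygous males and wild-type females mix both kinds of library, so the spread within these groups was wide for such genes. That spread limits what the absence of a pass can show. At an unadjusted p below 0.05 there were 1807, 1207 and 1373 genes. In males these held 38 of 53 near-complete genes (71.7%) and 195 of 322 part-fall genes (60.6%), beside 10.3% of all genes. In females they held 0 and 10 (0% and 3.11%), beside 6.90%. For the difference between the sexes the shares were 83.0% and 54.0%, beside 7.85%. These shares too are no separate observation. At an adjusted p of 0.05 edgeR also called 0, and DESeq2 called 25 (0.143%), 9 (0.0514%) and 3 (0.0171%), of which none was near-complete or part-fall. Chd8 itself was 2383 and 2508 in the low-Ttr heterozygous males and 2893 in wild-type female 1, within or just below the 2423 to 2994 of the other 9.

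Reads of overlapping genes on opposite strands cannot be told apart with this kit. How many of all described genes have such an overlapping neighbour was not worked out, but 8 near-complete and 71 part-fall genes do. They include Folr1 (with Anapc15), Otx2 (with its antisense RNA Otx2os1), Enpp2 (with Gm26684), Mfrp (with Rnf26) and Kcnj13 (with Gigyf2). The 371 near-complete and part-fall genes with a position contained 27 pairs with no other described gene between them in order of start, covering 52 genes. Such a pair could lie far apart, as Spef2 and Prlr did at 428370 bases, or overlap, as Otx2 and Otx2os1 did. How many such pairs any set of this size would hold was not worked out. Among these pairs were Krt8 and Krt18, Steap1 and Steap2, and Otx2 and Otx2os1, the last with 2.35% remaining.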

How the data were processed

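The authors deposited 1 table of signal values, gene read counts divided by a size factor of each library. Per the labels' protocols, libraries were made with a TruSeq RNA Sample Prep Kit v2, which does not keep strand. Per the submitters' processing notes, the build was GRCm38 and the tools were TopHat2 2.1.0, Trimmomatic 0.35, DESeq2 and HTSeq, with roles and annotation release not given in the sources used here. Symbols and positions came from GENCODE on GRCm38 (45229 of 46078 identifiers matched). Reads were recovered from the steps of the values, which were whole (within 1e-06 reads) for 100% of values in all 12 libraries.

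The analysis kept genes whose mean over all libraries reached 10. limma 3.58.1 (trend, R 4.3.3) was run on log2(value + 1), for the slope on Ttr within 9 libraries and for genotype with 1 mean per group, with Benjamini-Hochberg adjustment over all genes. On recovered reads, edgeR 4.0.16 called 250 slopes and DESeq2 1.42.0 called 385. The scripts were tested on simulated data. Same-numbered libraries were not paired (correlations of deviations from -0.58 to 0.29). Members and lists were chosen with earlier results of these data known. Named genes were Ttr, Folr1, Otx2 and members of the choroid and cilia lists, genes outside the lists by remaining level (near-complete with a mean of at least 100; the 12 part-fall genes under 50% with the highest low-Ttr level), the 5 smallest slope p-values, and members of other lists without overlap. Genes named in addition were picked after their values were seen, among them Fxyd1, Tor3a, Cfap69, Col1a1, Esm1 and Gm26804, or are overlapping neighbours of named genes.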

Additional observations from a re-analysis of the deposited data

How the results depend on the processing

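The near-complete and part classes held 48 to 58 and 314 to 418 genes when each library was left out in turn, and 53 and 311 to 331 with TMM, upper-quartile or per-million scaling. A mean of at least 50 left 33 near-complete genes, and the 2 groups that hold both kinds of library gave 46, of which 45 were among the 53. The 9 higher genes became 45 with no filter on low values, 0 with a mean of at least 50, 148 within the 2 groups, and 8 to 63 when 1 library was left out (63 without heterozygous male 2, 32 without heterozygous male 3, 29 without wild-type female 1). The 258 slopes became 156 with sex and genotype as covariates, and 196 to 463 when 1 library was left out, the highest without wild-type female 2. With those covariates 19 of the 91 called slopes of named genes no longer passed. Slopes of Igfn1, Lmx1a, Lgals3bp, Tjp3 and Slco1a5 no longer passed without wild-type female 2, and those of Lgals3bp and Lmx1a also without wild-type male 1. Genotype calls in males, in females and for the difference between the sexes went from 0 to 25, 9 and 3 with DESeq2, to 12, 1 and 2 without the 3 low-Ttr libraries (heterozygous males are then 1 library, assumed to vary like the other groups), and to between 0 and 1 when 1 library was left out, with 1 in each without heterozygous male 2 and 1 in females without heterozygous female 2. With the replicate block there were 0 in each, and 3 of 12 libraries correlated best with their own number. The cause of these changes was not tested. Where low-Ttr values are a few reads, a remaining level is known only to within counting error.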

Other observations

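The following genes were picked one by one after their values were seen, with no list behind them, and stand for no group. Oca2, which encodes a melanosome transporter, was 21.6, 15.2 and 20.9 in heterozygous males 2 and 3 and wild-type female 1, and 38.6 to 161.8 in the others, with a slope on Ttr of 1.01 ± 0.10 within the 9 libraries (limma adjusted p = 3.52e-05). The retinol dehydrogenase gene Rdh5 was 62.4, 66.3 and 52.7 against 128.1 to 357.7. Rd3, a photoreceptor gene, kept 18.1%, and Prcd, named for a retinal degeneration, 38.8%. The opsin gene Rrh kept 38.8% and the retinol-binding protein receptor gene Stra6 65.6%, and both overlapped between the sets although they rose with Ttr within the 9 libraries (slopes of 0.74 ± 0.14 and 0.27 ± 0.05, limma adjusted p = 0.0165 and 0.0199). Of these 2, Rrh no longer passed without heterozygous female 2 (limma adjusted p = 0.119) and Stra6 without wild-type female 2 (0.152), nor did either with sex and genotype in the fit (0.231 and 0.099).

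Of receptor genes picked in the same way, the melanocortin receptor gene Mc3r was 2.3, 2.2 and 0.9 against 5.4 to 30.7, and it rose with Ttr (slope 1.11 ± 0.15, limma adjusted p = 0.000989). The corticotropin-releasing hormone receptor gene Crhr2 was 39.7, 44.5 and 30.9 against 84.4 to 185.9, with a slope of 0.55 ± 0.07 (limma adjusted p = 0.000853).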
